A study of Drosophila melanogaster with 5 samples.

Results

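Axon guidance and cell adhesion genes were examined for peaks of Maleless (MLE), the RNA helicase of the dosage compensation complex, in early Drosophila melanogaster female embryos. The set holds 42 genes, chosen by name for their known roles in axon guidance and in neural or muscle cell adhesion, of 13922 protein-coding genes on the main chromosome arms (X, 4 and both arms of chromosomes 2 and 3). The choice was made with earlier results of these data known. All 42 were matched in the RefSeq gene table, with fmi listed there as stan. A gene was counted as having a peak in a library when a peak of that library's list overlapped its annotated extent, widened by 500 bp on both sides, by at least 1 bp.

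MLE was mapped by CUT&RUN: permeabilised embryos are incubated with an antibody to the protein and with a nuclease that binds the antibody, and the DNA cut free around it is sequenced. A single library came from embryos aged 0-2 h whose MTD-GAL4 mothers expressed a hairpin against Clamp (clampRNAi), the gene of a zinc finger protein with an affinity for GA-rich sequence. For the control embryos the mothers carried MTD-GAL4 and a GFP hairpin. They gave 2 libraries at 2-4 h, after control of development passes from maternal products to the embryo's own genome, and 2 libraries at 0-2 h, before it. MTD-GAL4 drives expression in the maternal germ line, so the hairpins act on what the mother supplies. All embryos were sired through a meiotic drive system that passes on X-bearing sperm, and embryos of several crosses and egg collections were used. Whole embryos were assayed, so a peak in part of the cells and a weaker peak in all of them cannot be told apart.

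Axons are steered by secreted or membrane-bound cues, among them Slit, netrins and semaphorins, read by receptors on the growth cone. Cell adhesion molecules such as cadherins, fasciclins, teneurins and immunoglobulin proteins hold neighbouring cells together and match axons or myoblasts with their partners, and receptor tyrosine phosphatases act beside them in motor axon guidance. Most of these genes are needed in the embryonic nervous system and musculature, which form after the ages sampled here.

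The peak lists differed in length and in kind before any gene was considered. The clampRNAi list held 493 peaks, the 2-4 h control lists 370 and 1589, and the 0-2 h control lists 723 and 1247. Replicate 2 at 2-4 h stood apart, with a median peak width of 2190 bp against 81 to 110 bp in the other lists, and the main counts that include it are given without it too. Sequencing depth is not known for any list, so the authors' signal was used as a rank within a list, the percentile of total signal, and maxima are quoted as the authors' values. Total signal is summed over the width of a peak, so a wide peak of low maximum can outrank a narrow peak of higher maximum. A library made without antibody was not used here, and the part of nuclease background or repeated sequence in these peaks was not tested.

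Peaks were found in 23 of the 42 genes when all 5 libraries were pooled, against 8.37% of all protein-coding genes, and in 16 of the 42 without replicate 2 at 2-4 h, against 4.98%. In 7 genes a peak was called in every library, namely NetB, Ten-a, Con, kirre, sns, side and Ptp99A, where 1.31% of all protein-coding genes did so. Leaving out replicate 2 at 2-4 h also gave 7 genes, against 1.59% of all genes. Other genes of similar length on the same arm, described below, would give 17.1 genes for the pooled 23 and 13.6 for the 16. For a peak in every library they would give 5.5 genes, and 6.17 without replicate 2 at 2-4 h. The remaining 19 of the 42 genes had no peak in any library: sli, robo1, robo3, fra, unc-5, Sema1b, PlexB, trn, rst, Fas1, Nrg, Nrt, Dscam1, Dscam2, Dscam3, CadN2, shg, fmi and Ptp69D.

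**Figure D1:**
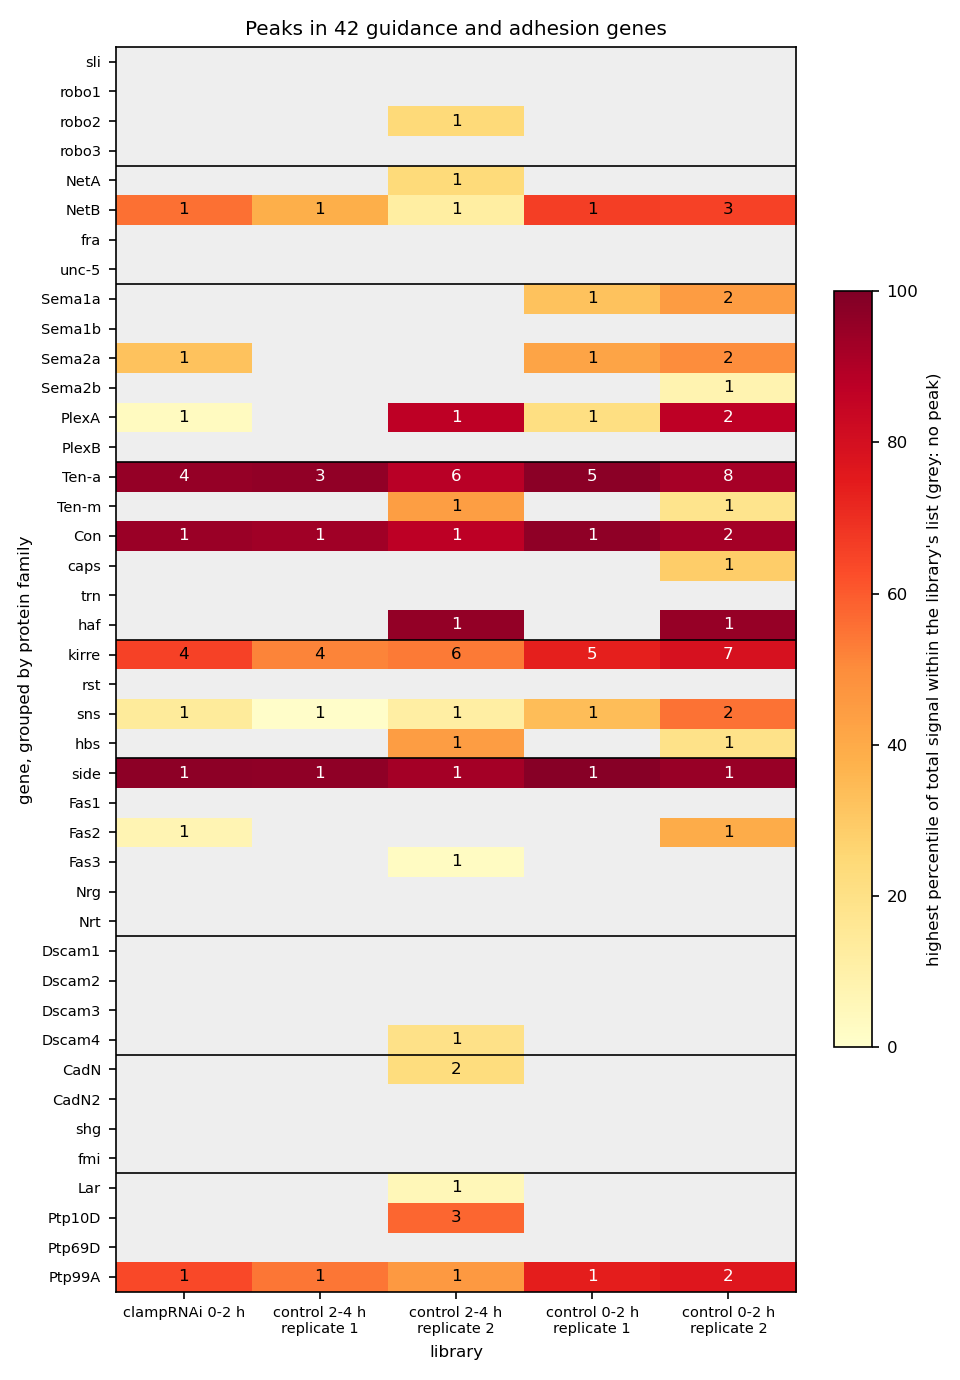
Peaks in the 42 genes (rows, grouped by protein family) in each library (columns). Numbers count peaks, colour gives the highest percentile of total signal among them within that library's list, and grey cells have no peak. The 7 genes with a peak in every library include side, Ten-a and Con, which reached percentiles of at least 87.3 in each list.

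Peaks were several times as frequent in these genes as in the genome as a whole, and much closer in frequency to other genes of similar length on the same arm. The 42 genes had a median length of 46.5 kb, against 2.16 kb for all protein-coding genes. A peak was called in 10 of them after clampRNAi (23.8%), in 7 (16.7%) and 18 (42.9%) in the 2-4 h controls and in 10 (23.8%) and 16 (38.1%) in the 0-2 h controls. Over all protein-coding genes the shares were 2.07% after clampRNAi, 1.67% and 6.38% in the 2-4 h controls and 2.77% and 4.55% in the 0-2 h controls.

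When each gene was instead set beside the 30 other protein-coding genes of its own arm nearest to it in length, the shares with a peak were 18.3% after clampRNAi, 14.7% and 30.8% in the 2-4 h controls and 21.2% and 31.3% in the 0-2 h controls. The guidance and adhesion genes thus had 1.3, 1.14, 1.39, 1.12 and 1.22 times as many members with a peak as such neighbours, in the same order of libraries. These ratios are descriptions with no test. For kirre and Ten-a no X-linked neighbours of like length were found, as these genes were on average 2.91 times as long as their neighbours. Without kirre and Ten-a the ratios were 1.29, 1.05, 1.45, 1.09 and 1.23. The remaining 40 genes were still somewhat longer than their neighbours, with a mean of 51.9 kb against 47.8 kb.

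The autosomal members exceeded their length neighbours in every list, and the X-linked members did so in 2 of the 5. The same 4 autosomal genes, Con, sns, side and Ptp99A, were counted in every list, so the 5 comparisons are not independent. Of 34 autosomal members, 6 had a peak after clampRNAi, 4 and 13 in the 2-4 h controls and 7 and 12 in the 0-2 h controls, where their length neighbours would give 3.87, 2.80, 8.17, 4.83 and 7.50. Of 8 X-linked members, 4 had a peak after clampRNAi, 3 and 5 in the 2-4 h controls and 3 and 4 in the 0-2 h controls, where their neighbours would give 3.80, 3.37, 4.77, 4.07 and 5.63. Per Mb of gene region, autosomal members held 3.32 peaks after clampRNAi, 2.21 and 7.74 in the 2-4 h controls and 3.87 and 9.95 in the 0-2 h controls, where autosomal protein-coding genes together held 2.27, 1.65, 6.68, 3.17 and 5.62. X-linked members held 10.3 peaks per Mb after clampRNAi, 8.23 and 17.5 in the 2-4 h controls and 11.3 and 19.5 in the 0-2 h controls, where X-linked protein-coding genes together held 8.99, 7.06, 13.0, 11.3 and 21.4. The difference between X-linked and autosomal members was not tested.

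**Figure D2:**
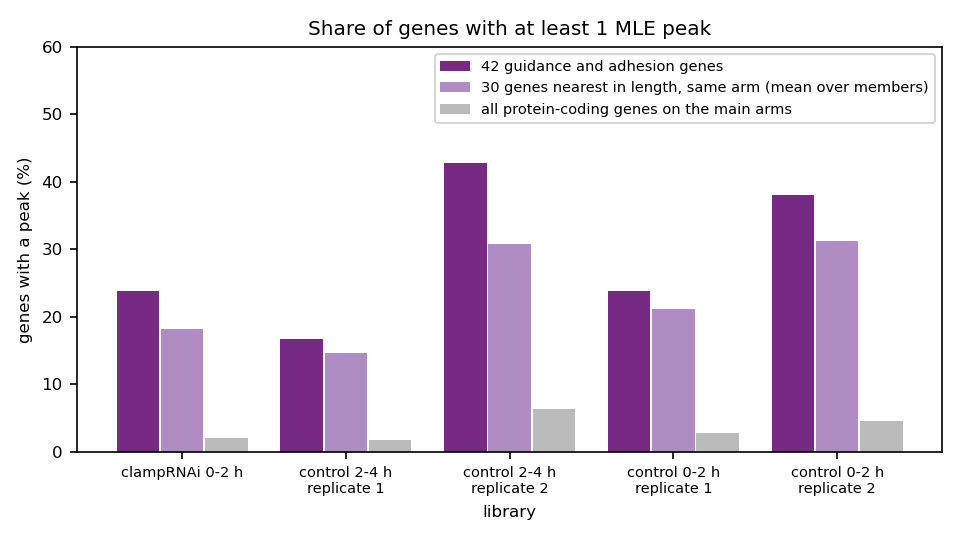
Share of genes with at least 1 peak, in percent, by library: the 42 guidance and adhesion genes, the mean over these genes of the share among the 30 genes nearest in length on the same arm, and all protein-coding genes of the main arms. The 42 genes lie between 16.7% and 42.9%, their length neighbours between 14.7% and 31.3% and all genes between 1.67% and 6.38%.

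Members with a peak in every library were long. The 7 genes with a peak in every library had a median length of 109 kb, from 57.6 kb for sns to 394 kb for kirre, while the 19 without a peak had a median of 27.8 kb, from 3.81 kb for trn to 88.3 kb for CadN2. Length alone did not order them: of the 10 longest members 9 had a peak in some library (6 without replicate 2 at 2-4 h) and 4 had a peak in all 5, while CadN2 had none, Lar and CadN had peaks in replicate 2 at 2-4 h alone, and side, at 62.4 kb, had a high-ranking peak in every list.

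Peaks that overlapped between libraries were merged into 52 regions, of which 11 were called in all 5 libraries, 11 in 2 to 4 libraries and 30 in 1 library. The 11 shared regions lay in 6 genes, 4 of them in kirre, 3 in Ten-a and 1 each in Con, side, NetB and Ptp99A. The positions of their maxima were the same to within a few bases: across the 5 libraries the midpoint of the maximum moved by a median of 3 bp and by at most 10 bp. Elsewhere on the main arms the median was also 3 bp over 233 regions called in all 5 libraries, with 91.8% of them within 10 bp. All 11 lay well inside their genes, at least 11251 bp from the nearer annotated gene end.

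Slit, the midline repellent encoded by sli, and its receptors Robo1, Robo2 and Robo3 are encoded by 4 genes of the set, for which length neighbours would give 0.900 genes with a peak in some library. Of them robo2 alone had a peak, on 2L from 1409298 to 1411733, in replicate 2 at 2-4 h. It was 2436 bp wide, at a percentile of 24.2, and its maximum signal was 23. No other library called it.

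Among the netrins, the midline attractants, NetB had a peak in every library and its neighbour on X, NetA, had a peak in replicate 2 at 2-4 h alone. The shared NetB region lay on X from 14708223 to 14708450. Its maximum signal was 468 after clampRNAi, 615 and 502 in the 2-4 h controls and 838 and 840 in the 0-2 h controls, at percentiles of 55.6, 38.4, 11.9, 66.1 and 65.5 of those lists. It was a middle-ranking peak by total signal outside replicate 2 at 2-4 h, where it ranked low. In that list it was 208 bp wide, against a median of 2190 bp, and its maximum of 502 was above the list's median maximum of 53. Replicate 2 at 0-2 h added a further pair of NetB peaks, with maxima of 330 and 251. The NetA peak was 5182 bp wide with a maximum of 9. The receptor genes fra, for the attractive response, and unc-5, for the repulsive response, had no peak. Of these 4 genes 2 had a peak in some library, where length neighbours would give 2.20. Without replicate 2 at 2-4 h 1 had a peak, where the neighbours would give 2.

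Of the 6 semaphorin and plexin genes, 2 had a peak after clampRNAi, 0 and 1 in the 2-4 h controls and 3 and 4 in the 0-2 h controls. Their length neighbours would give 0.467 after clampRNAi, 0.367 and 1.03 at 2-4 h and 0.567 and 0.933 at 0-2 h. The difference from the neighbours was not tested. Sema1a encodes a membrane-bound semaphorin, and Sema2a and Sema2b encode secreted semaphorins. The Sema1a region (2L, 8612220 to 8612291) was called in both 0-2 h controls, with maxima of 349 and 321 at percentiles of 32.2 and 44.8, and neither after clampRNAi nor at 2-4 h. The Sema2a region (2R, 16512536 to 16512582) had a maximum of 323 after clampRNAi and of 565 and 501 in the 0-2 h controls, at percentiles of 32.3, 41.9 and 49.9, and was called in neither 2-4 h control. These were narrow peaks, 71 bp wide for Sema1a and 37 to 47 bp for Sema2a, ranking in the lower part of their lists. Replicate 2 at 0-2 h alone called further peaks in Sema1a (maximum 210), Sema2a (348) and Sema2b (180).

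PlexA, on chromosome 4, encodes the receptor of Sema1a. Its region (1021028 to 1022114) was called after clampRNAi with a maximum of 47, in replicate 2 at 2-4 h with 464 and in the 0-2 h controls with 47 and 398. The percentiles were 3.25 after clampRNAi, 87.1 in replicate 2 at 2-4 h and 21.4 and 86.9 in the 0-2 h controls. The libraries divided by replicate number at this gene, with both replicates 2 ranking the peak high. PlexA was also an exception in the placing of the maximum, which moved by 648 bp between libraries. Sema1b and PlexB, the receptor gene for the secreted semaphorins, had no peak.

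Ten-a, which encodes a teneurin used to match synaptic partners, held the strongest X-linked peak of the set. On X from 12089860 to 12090607 its maximum was 3143 after clampRNAi, 4996 and 2721 in the 2-4 h controls and 6733 and 5412 in the 0-2 h controls. The percentiles were 95.5 after clampRNAi, 96.2 and 88.1 at 2-4 h and 97.6 and 92.0 at 0-2 h, so the peak was near the top of every list. The region overlaps an annotated long non-coding RNA gene, lncRNA:CR43960, inside Ten-a. A second shared region (12119508 to 12120287) ranked between 44.1 and 75.1, and the third (12304122 to 12305684) between 50.0 and 75.1.

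Outside these regions Ten-a had peaks at 6 more places, each called in 1 to 4 libraries. The region from 12160739 to 12161774 had a maximum of 187 after clampRNAi, 296 in replicate 2 at 2-4 h and 351 and 591 in the 0-2 h controls, and was not called in replicate 1 at 2-4 h. In all, Ten-a held 4 peaks after clampRNAi, 3 and 6 in the 2-4 h controls and 5 and 8 in the 0-2 h controls. Ten-m, the other teneurin gene (3L), had 1 peak in replicate 2 at 2-4 h and 1 in replicate 2 at 0-2 h, at different places.

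Con encodes Connectin, a leucine-rich repeat adhesion protein on motor axons and their muscles. Its shared region (3L, 4960141 to 4961129) had a maximum of 2492 after clampRNAi, 3483 and 2435 in the 2-4 h controls and 4920 and 5342 in the 0-2 h controls. The percentiles were 94.3 after clampRNAi, 93.2 and 87.3 at 2-4 h and 96.5 and 92.2 at 0-2 h. As in Ten-a, a high-ranking peak stood in every list, 78 to 85 bp wide outside replicate 2 at 2-4 h, where it was 989 bp wide.

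The haf gene (2L), which encodes a leucine-rich repeat protein, gave a different picture. Its region from 1558581 to 1558900 had a maximum of 10152 in replicate 2 at 2-4 h and of 9230 in replicate 2 at 0-2 h, at percentiles of 96.0 and 95.2. The clampRNAi library and both replicates 1 did not call it. It held the highest maximum among the peaks of the 42 genes in both lists that called it. The related leucine-rich repeat gene caps had a peak in replicate 2 at 0-2 h alone (maximum 236), and trn had none. Of the 6 teneurin and leucine-rich repeat genes of the set, 5 had a peak in some library, with or without replicate 2 at 2-4 h. Their length neighbours would give 3.37 with it and 2.50 without it.

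kirre and rst encode immunoglobulin proteins of muscle founder cells, and sns and hbs their partners on fusion-competent myoblasts. kirre, the longest member, had 4 peaks after clampRNAi, 4 and 6 in the 2-4 h controls and 5 and 7 in the 0-2 h controls, of which 4 in each library belonged to the shared regions. The shared region of highest rank in 4 of the lists (X, 2839923 to 2840009) had a maximum of 527 after clampRNAi, 680 and 815 in the 2-4 h controls and 1013 and 1447 in the 0-2 h controls. Its percentiles were 65.5 after clampRNAi, 50.3 and 53.6 at 2-4 h and 73.6 and 78.9 at 0-2 h, and in replicate 1 at 2-4 h the kirre region from 2988135 ranked above it, at 51.6. These are middle ranks, lower than those of the leading Ten-a, Con and side peaks in every list. The other shared kirre regions lay from 2856603 to 2857294, from 2988135 to 2989217 and from 3090243 to 3090860.

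Per unit of length, Ten-a had more peaks than X-linked coding genes together in every list. The density of kirre was also above theirs, except in replicate 2 at 0-2 h, and was below that of Ten-a in every list. These densities rest on 3 to 8 peaks per list in Ten-a and 4 to 7 in kirre, and the differences were not tested. kirre held 10.1 peaks per Mb after clampRNAi, 10.1 and 15.2 in the 2-4 h controls and 12.7 and 17.7 in the 0-2 h controls. Ten-a held 13.7 peaks per Mb after clampRNAi, 10.3 and 20.5 in the 2-4 h controls and 17.1 and 27.3 in the 0-2 h controls. Protein-coding genes of X together held 8.99 after clampRNAi, 7.06 and 13.0 in the 2-4 h controls and 11.3 and 21.4 in the 0-2 h controls. rst, which lies within the kirre extent, had no peak of its own.

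**Figure D3:**
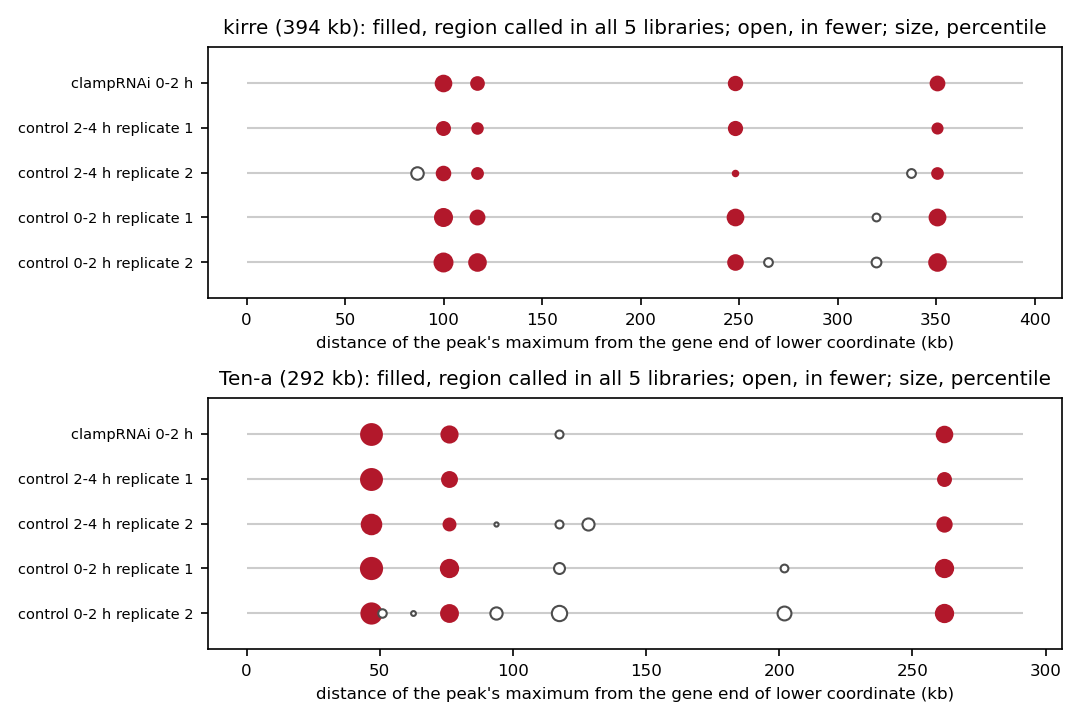
Positions of the maxima of all peaks along kirre and Ten-a, in kb from the gene end of lower coordinate, in each library. Filled points belong to regions called in all 5 libraries (4 in kirre and 3 in Ten-a), open points to regions called in fewer, and point size follows the percentile of total signal within the list.

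sns (2R) had a peak in every library, but not at the same place in all of them. The narrow region from 8813863 to 8813937 had a maximum of 230 after clampRNAi, 371 in replicate 1 at 2-4 h and 419 and 543 in the 0-2 h controls, at percentiles of 14.0, 0.811, 33.7 and 55.2. Replicate 2 at 2-4 h called only a peak of 3585 bp farther along, with a maximum of 19, which overlaps the nested gene CG30350. hbs had a peak in both replicates 2, with the maximum at the same position, and a maximum signal of 126 at 2-4 h and 174 at 0-2 h.

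side encodes Sidestep, an immunoglobulin protein that attracts motor axons to muscle. Its region (3R, 27426184 to 27426650) held the highest-ranking peak of the set in 3 lists, and in the lists of both replicates 2 only haf ranked higher. The maximum was 4171 after clampRNAi, 5394 and 4265 in the 2-4 h controls and 7516 and 8709 in the 0-2 h controls, at percentiles of 97.2, 96.5, 92.3, 98.1 and 94.5. Peaks at this region were 367 to 369 bp wide in 4 libraries and 467 bp wide in replicate 2 at 2-4 h.

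Fas2, which encodes a homophilic adhesion protein on axon bundles, had a region on X (4190229 to 4190708) called after clampRNAi, with a maximum of 152 at a percentile of 7.30, and in replicate 2 at 0-2 h, with 208 at 39.2. No other library called it. Fas3 had a peak in replicate 2 at 2-4 h alone, with a maximum of 24, overlapping the nested gene Acp36DE. Fas1 and the genes of the L1-type protein Neuroglian (Nrg) and of Neurotactin (Nrt) had none. Of the 6 genes side, Fas1, Fas2, Fas3, Nrg and Nrt, 3 had a peak in some library, where length neighbours would give 2.50. Without replicate 2 at 2-4 h 2 had a peak, where the neighbours would give 2.03.

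In the Dscam family and among the cadherins 1 gene of 4 each had a peak in some library, where their length neighbours would give 1.33 and 1.27. Without replicate 2 at 2-4 h neither family had a peak, where their neighbours would give 0.867 and 0.967. Dscam1, whose many splice forms let a neuron tell its own branches from those of others, had no peak over 64.0 kb, nor did Dscam2 and Dscam3. Dscam4 had a peak in replicate 2 at 2-4 h alone, with its maximum outside the annotated gene. This peak also overlaps the gene CG7213. CadN, the main neural cadherin gene, had a pair of peaks in replicate 2 at 2-4 h alone, with maxima of 11 and 19. CadN2, shg, which encodes E-cadherin, and fmi, which encodes the atypical cadherin Flamingo, had none.

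Of the 4 receptor tyrosine phosphatase genes, 3 had a peak in some library, where length neighbours would give 1.90. Without replicate 2 at 2-4 h 1 had a peak, where the neighbours would give 1.70. Ptp99A (3R) alone had a peak in every library. Its region from 29455406 to 29455767 had a maximum of 599 after clampRNAi, 857 and 772 in the 2-4 h controls and 1196 and 1477 in the 0-2 h controls. The percentiles were 63.7 after clampRNAi, 54.6 and 45.9 at 2-4 h and 74.0 and 76.5 at 0-2 h, close to those of the kirre regions. Lar had 1 peak and Ptp10D had 3 in replicate 2 at 2-4 h alone, with maxima of 72 for Lar and 55, 9 and 27 for Ptp10D. The Lar peak overlaps CG46244 and a Ptp10D peak overlaps Met. Ptp69D had no peak.

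**Figure D4:**
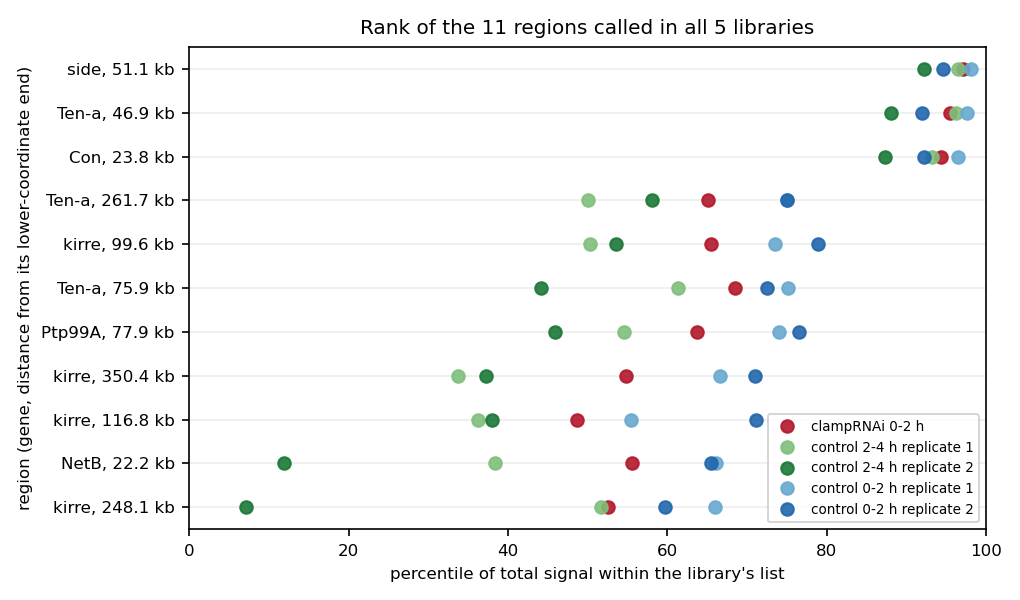
Percentile of total signal within each library's list for the 11 regions called in all 5 libraries, named by gene and distance from its lower-coordinate end. The side region, the leading Ten-a region and the Con region lie at 87.3 or above in every list, and the other 8 lie between 7.17 and 78.9.

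Comparison of the ages asked whether MLE peaks at these genes differed after the maternal-to-zygotic transition. A mean of 12.5 genes had a peak at 2-4 h (7 and 18, n = 2) and of 13.0 at 0-2 h (10 and 16, n = 2), a difference of -0.50 genes that was smaller than the spread between replicates (exact two-sided permutation test over libraries, p = 1). With 2 against 2 libraries this test cannot give a p below 0.333. The direction rested on the libraries used: the difference was 5.00 without replicate 1 at 2-4 h, -6.0 without replicate 2 at 2-4 h, -3.50 without replicate 1 at 0-2 h and 2.50 without replicate 2 at 0-2 h.

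No gene of the set had a peak in both 2-4 h controls and neither 0-2 h control, as was the case for 0% of all protein-coding genes. Sema1a and Sema2a had a peak in both 0-2 h controls and neither 2-4 h control, 2 genes where 0.474% of all genes did so and where length neighbours would give 1.10. A peak in both 2-4 h controls was found in 7 genes (1.34% of all genes) and in both 0-2 h controls in 10 (2.38%). Length neighbours would give 5.5 and 8.5. Replicate 1 had 7 genes with a peak at both ages, 0 with a peak only in its 2-4 h list and 3 only in its 0-2 h list, which were Sema1a, Sema2a and PlexA. Replicate 2 had 11 genes with a peak at both ages, 7 only in its 2-4 h list and 5 only in its 0-2 h list. More genes had a peak at 2-4 h in replicate 2, and fewer in replicate 1.

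The genes with a peak at 2-4 h alone all came from the list that stood apart. robo2, NetA, Fas3, Dscam4, CadN, Lar and Ptp10D had peaks in replicate 2 at 2-4 h and in no other library, 7 genes where 3.38% of all protein-coding genes did so and where length neighbours would give 3.47. Over the whole set, 15 regions in 11 genes were called in that library alone. They were 1479 to 7511 bp wide, with maxima of 9 to 72. The 11 shared regions were called in the same library with maxima of 344 to 4265. Sema2b and caps were the 2 genes with a peak in replicate 2 at 0-2 h alone (0.848% of all genes), where length neighbours would give 2. Ten-m, haf and hbs were the 3 with peaks in both replicates 2 and in no other library (1.26%), where length neighbours would give 2.57. In all, 15 regions, in 12 genes, were called in replicate 2 at 0-2 h alone, with a median width of 67 bp, maxima of 10 to 348 and percentiles of 3.77 to 45.9. The part of sequencing depth in these counts was not tested.

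**Figure D5:**
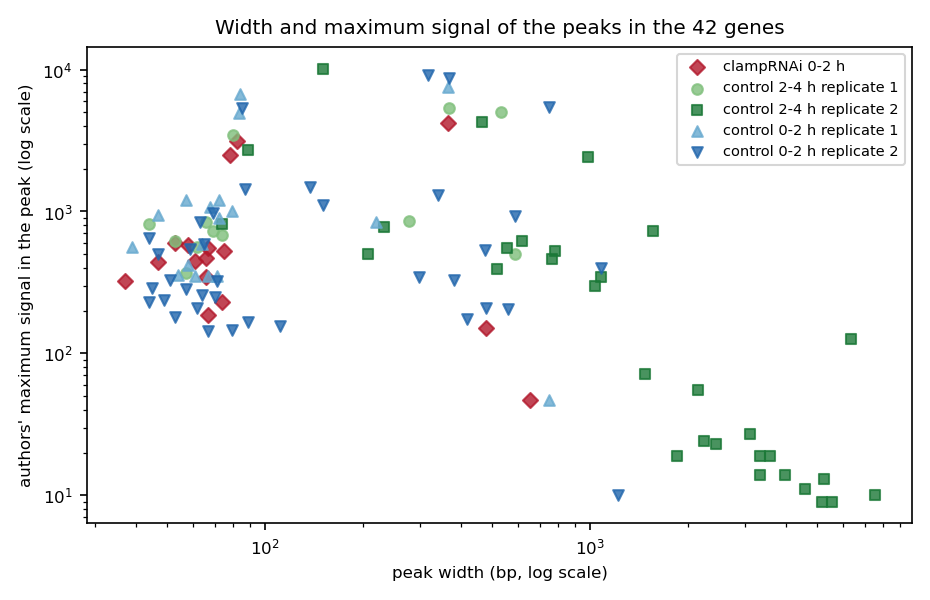
Width in bp and the authors' maximum signal, both on log scales, of every peak in the 42 genes, by library. Peaks called in replicate 2 at 2-4 h alone lie at the lower right, 1479 to 7511 bp wide with maxima of 9 to 72, while the other libraries hold mainly peaks under 200 bp.

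Peaks at these genes were mostly narrower than a read of 150 bp, except in replicate 2 at 2-4 h. Of 16 peaks after clampRNAi, 13 were under 150 bp, as were 8 of 12 and 2 of 31 in the 2-4 h controls and 15 of 18 and 23 of 37 in the 0-2 h controls. None of the peaks had the midpoint of its maximum within 500 bp of an annotated end of its gene. The gene table gives extents without strand, so gene starts were not told apart from gene ends.

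Comparison of clampRNAi with control embryos of the same age asked whether MLE peaks at these genes depended on maternal CLAMP. Of the 10 genes with a peak in both 0-2 h controls, 9 had a peak after clampRNAi, 90.0% (Clopper-Pearson 95% interval 55.5% to 99.7%), where 83.1% of the 331 such protein-coding genes did so. The exception was Sema1a, 1 gene of the set where 0.402% of all genes had a peak in both 0-2 h controls and not after clampRNAi. Length neighbours would also give 1 such gene. No gene had a peak after clampRNAi and in neither 0-2 h control, against 0.0215% of all genes and 0.1 genes from length neighbours. Of 16 genes with a peak in replicate 2 at 0-2 h, 10 had a peak after clampRNAi and 10 in replicate 1 at 0-2 h.

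For comparison within the controls, 7 of the 10 genes had a peak in replicate 1 at 2-4 h, where 67.4% of the 331 genes did so, and 8 in replicate 2 at 2-4 h, where 68.0% did so.

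Counted by region, both 0-2 h controls shared 18 regions, and the clampRNAi list held 15 of these, 83.3% (58.6% to 96.4%). The regions not called were those in Sema1a, in Ten-a from 12245035 to 12245509 and in kirre from 3059804 to 3059860. Their percentiles were 32.2, 20.7 and 20.9 in replicate 1 at 0-2 h and 44.8, 55.9 and 32.4 in replicate 2 at 0-2 h, and no 2-4 h control called any of them. The intervals cover counting error over genes or regions only, and these are not replicates of clampRNAi. Regions were also not spread evenly, as 10 of the 18 peaks of replicate 1 at 0-2 h lay in kirre and Ten-a. The share retained over all such regions of the main arms was not counted. With 1 library after clampRNAi there is no test between the conditions, and the lists do not measure how far CLAMP was depleted.

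Ranks of the 11 shared regions ran from 48.7 to 97.2 after clampRNAi, with a median of 65.1, from 33.8 to 96.5 (median 51.6) and from 7.17 to 92.3 (median 45.9) in the 2-4 h controls, and from 55.5 to 98.1 (median 74.0) and from 59.7 to 94.5 (median 75.1) in the 0-2 h controls. Ranks from lists of different length and peak width can show neither a change between conditions nor its absence. The 233 regions called in all 5 libraries elsewhere on the main arms had median percentiles of 72.0 after clampRNAi, 63.0 and 59.3 in the 2-4 h controls and 79.3 and 79.3 in the 0-2 h controls.

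A further 106 genes of guidance and adhesion, in 6 lists, were counted in the same way, and 29 of them (27.4%) had a peak in some library, where 24.3 would be given by their own length neighbours. Without replicate 2 at 2-4 h, 21 had a peak, where the neighbours would give 16.6. The lists together had 10 genes with a peak after clampRNAi, 7 and 15 in the 2-4 h controls and 13 and 18 in the 0-2 h controls, where the neighbours would give 9.17, 7.17, 17.4, 11.1 and 15.5. These genes were thus near their length neighbours in number, with no test made. The 6 lists were not set beside length neighbours one by one. Over all protein-coding genes the shares with a peak were 2.07% after clampRNAi, 1.67% and 6.38% at 2-4 h and 2.77% and 4.55% at 0-2 h. Median gene lengths of the lists ran from 7.42 to 41.0 kb, against 2.16 kb for all protein-coding genes. Among 31 genes of axon guidance signalling, 4 had a peak after clampRNAi, 4 and 8 in the 2-4 h controls and 4 and 6 in the 0-2 h controls. Of these, 2 genes had peaks in all 5 libraries, among them trio, a gene of growth cone signalling. The stronger trio peak ranked at 92.5 after clampRNAi, 90.3 and 88.2 in the 2-4 h controls and 94.7 and 92.4 in the 0-2 h controls. comm3, a relative of the Robo regulator commissureless, and sdc, the Syndecan gene, had peaks in every library except replicate 2 at 2-4 h.

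Other adhesion genes with a peak in all 5 libraries were ed, which encodes the immunoglobulin adhesion protein Echinoid, and kek5, a leucine-rich repeat gene on X. The leading ed peak ranked at 91.5 after clampRNAi, 90.5 and 93.3 in the 2-4 h controls and 95.2 and 94.1 in the 0-2 h controls. Of 16 synaptic and septate adhesion genes, 4 had a peak after clampRNAi, 2 and 2 in the 2-4 h controls and 6 and 5 in the 0-2 h controls, among them bdl, Nlg4 and tutl. bdl and tutl are neighbours on 2L, and the peak of replicate 2 at 0-2 h from 4323386 to 4324057 was counted for both.

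Of 14 leucine-rich repeat receptor genes, 1 had a peak after clampRNAi, 1 and 2 in the 2-4 h controls and 2 and 1 in the 0-2 h controls, with Tollo and kek4 beside kek5. The beat and side families, receptors and ligands of motor axons, had 1 of 21 genes with a peak after clampRNAi, 0 and 3 in the 2-4 h controls and 1 and 3 in the 0-2 h controls. Within them side-VI had peaks in 3 libraries and beat-Ia, beat-IIa and beat-IIb in 1 library each. Of 12 other cadherin genes, Cad87A and Cad99C had a peak in replicate 2 at 0-2 h alone, as did mew, an integrin subunit gene, among 12 integrin and laminin genes.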

How the data were processed

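CUT&RUN peaks of MLE in whole female embryos were deposited as 1 list for each of 5 libraries. According to the submitters' processing notes, SEACR 1.3 and deepTools were used along with bcl2fastq 2.17, Trimmomatic 0.40 and Bowtie2 2.4.4, on dm6; the notes give no roles. The authors' lists hold a total signal (the coverage summed over a peak) and a maximum signal for every peak. How peaks were thresholded or signal scaled is not stated in the labels, and depth is unknown. Titles gave the groups and the replicate numbers. The labels do not say that replicates came from separate crosses, so a p over libraries measures only the spread between these libraries, which may be technical. Intervals cover counting error over genes or regions only, as these are not replicates of a condition. Sequenced reads with no molecular identifier may be copies of 1 molecule.

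Gene extents came from RefSeq (assembly Release 6 plus ISO1 MT, also called dm6), without strand or exons. Coordinates are 1-based. The members and all lists were chosen with earlier results of these data known. Values were given in every library for members with a peak in at least 3 libraries, and up to 4 genes of each other list were named, by number of libraries and then symbol, except 1 that is not reported here. Regions were merged where peaks shared at least 1 bp. A percentile is the share of a list's peaks with a total signal at or below that of the peak. Alternatives changed list length, peak width, signal threshold, gene region, overlap rule, length neighbours and libraries. Counting was tested on simulated peaks. Python 3.11.15, numpy 2.4.6, pandas 2.3.3 and SciPy 1.17.1 were used.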

Additional observations from a re-analysis of the deposited data

How the results depend on the processing

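Of 113 values recomputed under the alternatives, 3 reversed and 15 moved by more than 1.5 times (counts) or beyond the 95% binomial interval of the value reported (ratios and shares). The other 95 stayed within those limits or, for the difference between ages, kept their direction, though some differed in size. For the share of 90.0% called after clampRNAi the interval ran from 55.5% to 99.7%. Any share of 100% therefore counted as moved, while 62.5% did not. When all lists were limited to the strongest 370 peaks by total signal, genes with a peak numbered 5 in replicate 2 at 2-4 h and 6 and 7 in the 0-2 h controls, and 100% of 5 genes with a peak in both 0-2 h controls had a peak after clampRNAi. With peaks of at least 200 bp the numbers were 3 after clampRNAi, 4 and 17 in the 2-4 h controls and 3 and 8 in the 0-2 h controls. The difference between ages was 5.00, in reverse, with the count of 17 from the list that stood apart in peak width. The ratio to length neighbours was 3.53 in replicate 1 at 2-4 h (4 genes against 1.13), and 100% of 2 genes were called after clampRNAi. With the upper part of each list by total signal the numbers were 6 after clampRNAi, 7 in replicate 2 at 2-4 h and 6 and 9 in the 0-2 h controls, and 100% of 6 genes were called after clampRNAi. These alternatives leave fewer peaks by construction. Left-out libraries gave differences between ages from -6.0 to 5.00, reversed without replicate 1 at 2-4 h (5.00) and without replicate 2 at 0-2 h (2.50), and shares called after clampRNAi of 62.5% to 90.0%. With the replicate number as a block, the paired difference was -0.50 genes (exact sign-flip test, p = 1, where 0.5 is the smallest possible). Gene regions with no widening or 2000 bp, stricter overlap rules and 15 or 60 length neighbours, or neighbours of any biotype, moved no value beyond those limits. The ratios without kirre and Ten-a and the counts without replicate 2 at 2-4 h were chosen after seeing the data. Unknown depth limits every count of genes without a peak.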
